A study of Mus musculus with 30 samples.

Results

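Melanocyte pigment genes were followed in whole B16 melanomas that secrete either of a pair of type I interferon subtypes. The members are 9 genes of melanin synthesis, melanosome traffic and their control, Tyr, Tyrp1, Oca2, Trpm1, Mitf, Gpnmb, Rab27a, Rab38 and Mc1r, each taken as the row of the count table that maps to its symbol, and they make up 9 of the 39676 genes in that table. Bulk RNA sequencing was done on 30 tumors taken on day 8 after inoculation, 10 each of B16-GFP, B16-IFNA4 and B16-IFNA9. B16-F10 is a melanoma line from a C57BL/6 mouse. Its cells were transduced with a retroviral vector in which the viral long terminal repeat drives IFNα4 with GFP, IFNα9 with GFP, or GFP alone, and all lines, the control included, also carried herpes simplex virus glycoprotein B with CFP, and firefly luciferase with puromycin resistance. Each line was a pool sorted for fluorescent cells and was injected under the skin of female C57BL/6 mice, usually young adults, so a tumor holds the melanoma cells together with host skin, vessel and immune cells. Ifna4 had counts in the 10 B16-IFNA4 tumors, 81 to 188 per tumor, and Ifna9 in the 10 B16-IFNA9 tumors, 55 to 148, and each was at 0 in the other types, where a count of 0 allows up to 3 counts per tumor.

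Melanin is made in the melanosome, a lysosome-related organelle of pigment cells. Signals through the melanocortin receptor raise cyclic AMP and with it MITF, a transcription factor that binds E-box sequences of the form TCATGTG or TCACGTG near many pigment genes, including those for the melanin-making enzymes. Melanosome proteins are sorted with the help of small GTPases, and other GTPases tether the ripe organelle to the actin network. Dct, Pmel and Mlana were not analysed here.

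Promoters are shown for the members whose 300 bases around an annotated start, 250 before and 50 after, hold TCATGTG on either strand, since this is the MITF-type E-box and Mitf is a member. The promoter table from RefSeq (GRCm38.p6) had 12 entries for 8 of the 9 members and none for Rab38. The letters were found in 4 of these 12 entries, 1 each of Tyr, Tyrp1, Trpm1 and Mc1r, against 3.77% of all 32851 promoters in the table, and TCACGTG was found in 0 of the 12, against 3.77% of all. The 160 bases before the start are printed 5′ to 3′ on the gene's strand, with TCATGTG in capitals.
Tyr, chr7:87493513-87493672, minus strand: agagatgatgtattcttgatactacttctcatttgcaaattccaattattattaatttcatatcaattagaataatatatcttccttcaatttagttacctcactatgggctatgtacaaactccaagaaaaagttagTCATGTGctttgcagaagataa
Tyrp1, chr4:80834053-80834212, plus strand: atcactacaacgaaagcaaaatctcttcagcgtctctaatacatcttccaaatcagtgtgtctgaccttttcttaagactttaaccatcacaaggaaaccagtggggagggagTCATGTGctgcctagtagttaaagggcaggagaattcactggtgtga
Trpm1, chr7:64153675-64153834, plus strand: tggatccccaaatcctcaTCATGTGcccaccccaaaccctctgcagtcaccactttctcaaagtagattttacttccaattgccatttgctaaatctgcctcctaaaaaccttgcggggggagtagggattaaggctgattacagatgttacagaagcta
Mc1r, chr8:123406922-123407081, plus strand: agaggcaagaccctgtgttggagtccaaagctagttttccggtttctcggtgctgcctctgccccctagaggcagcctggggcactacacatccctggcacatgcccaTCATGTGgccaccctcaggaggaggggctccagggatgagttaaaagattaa
The first capital lies 22 bases before the start in Tyr, 47 in Tyrp1, 142 in Trpm1 and 52 in Mc1r. The shorter letters CATGTG, which TCATGTG contains, were in 6 of the 12 entries, against 14.2% of all promoters, namely the 4 above, a second entry of Trpm1, and Oca2, 186 bases before the start on the other strand. CACGTG, which TCACGTG contains, was in 2 of the 12, against 7.15% of all, 246 bases before a start of Rab27a and 229 before that of the second Trpm1 entry. A match is a run of letters only, and binding was not measured.

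Sequencing depth was even, with 14598517 to 19788383 counts per tumor, and levels are given as CPM, a gene's count over the library size after scaling by edgeR's trimmed mean of M-values (TMM), brought to a common depth. B16-GFP replicate 7 stood apart from the other tumors of its type. It held the highest CPM of all 9 members, from 1.24 times the mean of the other 9 B16-GFP tumors for Mitf to 3.04 times for Oca2, and the lowest Xist, 36.1 CPM against 283.9 to 904.8 in the others. With library totals in place of TMM it was still the highest for Tyr, Tyrp1, Oca2, Trpm1, Rab27a and Rab38, but was 7th highest for Mitf, 4th for Gpnmb and 6th for Mc1r. The members' calls, the pair ratios and the counts over gene lists are therefore also given without it, for the lists as an alternative chosen after the data were seen.

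In B16-IFNA4 tumors all 9 members were lower than in B16-GFP tumors in edgeR's quasi-likelihood fit (p-values adjusted by Benjamini-Hochberg over 15926 genes), from a log2 fold change of -0.997 ± 0.139 (SE) for Mitf to -1.998 ± 0.233 for Trpm1. In the same comparison 34.1% of all genes tested were lower, so a lower call was common, and the median log2 fold change was -1.24 over the members against 0.01 over all genes. In B16-IFNA9 tumors all 9 members were again lower than in B16-GFP tumors, from -0.48 ± 0.16 for Rab27a to -1.31 ± 0.25 for Oca2, against 28.9% of all genes, with a median of -0.97. Library totals in place of TMM shifted the median of all genes up by 0.08, 0.10 and 0.02 in the comparisons of B16-IFNA4 and B16-IFNA9 with B16-GFP and of B16-IFNA9 with B16-IFNA4. With IFNα4 they turned the split of all genes from 31.3% higher and 34.1% lower to 34% and 29.9%. With IFNα9 it turned from 26.9% higher and 28.9% lower to 31.7% and 22.7%, and in both comparisons the 9 members were still lower. Between the interferon types, 7 of the 9 members were higher in B16-IFNA9, against 10.5% of all genes, from 0.41 ± 0.14 for Mitf to 0.91 ± 0.23 for Trpm1. Tyr at 0.27 ± 0.18 and Oca2 at 0.38 ± 0.25 did not pass the test, with adjusted p = 0.328 and 0.303. Both comparisons with B16-GFP use the same 10 control tumors. In RNA from whole tumors, fewer melanoma cells and less of a transcript per melanoma cell cannot be told apart from one gene's level.

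**Figure D1:**
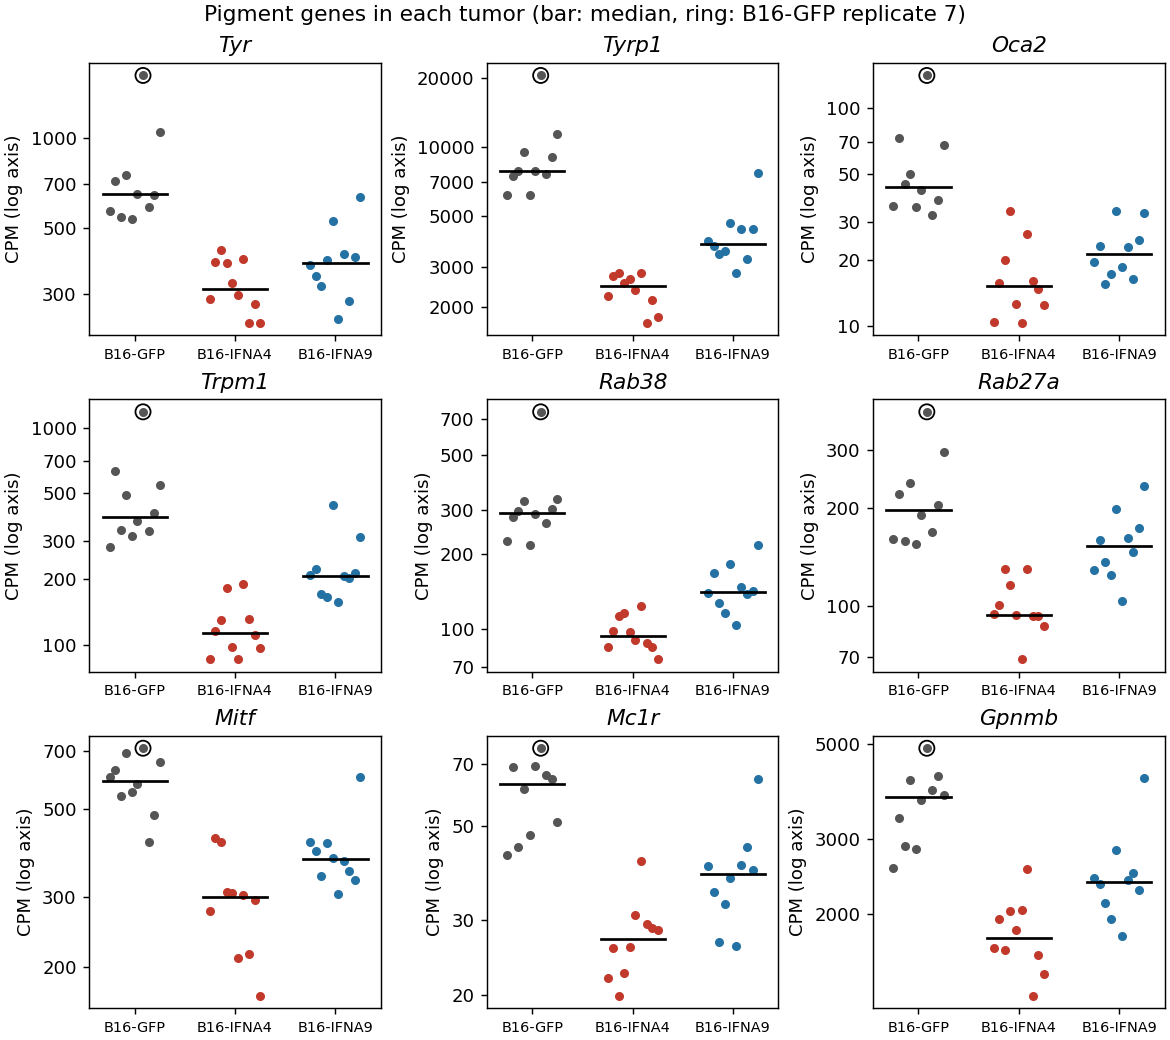
CPM (log axis) of the 9 pigment genes in each of 30 tumors, 10 per type, with a bar at the median and a ring around B16-GFP replicate 7. Every B16-IFNA4 tumor sits below every B16-GFP tumor for 7 genes, all but Oca2 and Mitf.

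Tyr encodes tyrosinase, the rate-limiting enzyme of melanin synthesis, and lies at chr7:87424771-87493512 on the minus strand. Its level was 536 to 1623 CPM with a median of 647 in B16-GFP, 239 to 419 with a median of 311 in B16-IFNA4, and 247 to 632 with a median of 381 in B16-IFNA9. The B16-IFNA4 tumors did not overlap with B16-GFP, and 1 of the 10 B16-IFNA9 tumors reached into the B16-GFP range. The log2 fold change from B16-GFP was -1.24 ± 0.18 in B16-IFNA4 (adjusted p = 1.09e-06) and -0.97 ± 0.18 in B16-IFNA9 (adjusted p = 6.04e-05). Between the interferon types its ranges overlapped, with 2 B16-IFNA9 tumors above all of B16-IFNA4.

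Tyrp1 encodes tyrosinase-related protein 1, which acts on later intermediates of eumelanin and steadies tyrosinase, and lies at chr4:80834123-80851719 on the plus strand. Its level was 6137 to 20517 CPM (median 7827) in B16-GFP, 1704 to 2811 (median 2457) in B16-IFNA4 and 2818 to 7695 (median 3774) in B16-IFNA9. The 10 B16-IFNA9 tumors all lay above the 10 B16-IFNA4 tumors, which held for no other member and for 2.08% of all genes. The log2 fold change was -1.97 ± 0.19 with IFNα4 (3.93-fold lower, adjusted p = 4.25e-10) and -1.17 ± 0.19 with IFNα9 (2.25-fold lower, adjusted p = 6.99e-06), and 0.81 ± 0.19 between B16-IFNA9 and B16-IFNA4 (adjusted p = 0.00269).

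Oca2 encodes a chloride channel of the melanosome membrane that sets its pH, and lies at chr7:56239760-56536518. Its level was 32.4 to 141 CPM (median 43.5) in B16-GFP, 10.3 to 33.7 (median 15.2) in B16-IFNA4 and 15.6 to 33.7 (median 21.4) in B16-IFNA9. 1 tumor of B16-IFNA4 and 2 of B16-IFNA9 overlapped with B16-GFP, and the interferon types overlapped with each other. It was called lower with a log2 fold change of -1.69 ± 0.25 with IFNα4 (adjusted p = 1.04e-06) and -1.31 ± 0.25 with IFNα9 (adjusted p = 6.08e-05).

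Trpm1 encodes a cation channel of melanocytes and retinal bipolar cells, and lies at chr7:64153835-64269775. Its level was 282.9 to 1183 CPM (median 389) in B16-GFP, 85.7 to 191 (median 114) in B16-IFNA4 and 157 to 441 (median 208) in B16-IFNA9. B16-IFNA4 did not overlap with B16-GFP, and 7 of 10 B16-IFNA9 tumors lay above all B16-IFNA4 tumors. Its log2 fold change was -1.998 ± 0.233 (4.00-fold lower, adjusted p = 1.6e-08) with IFNα4 but -1.09 ± 0.23 (2.13-fold lower, adjusted p = 0.000184) with IFNα9. The difference between the types, 0.91 ± 0.23, passed the test (adjusted p = 0.00523).

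Rab38 encodes a small GTPase that sorts tyrosinase and Tyrp1 to the melanosome, and lies at chr7:88430273-88491572. Its level was 218 to 747 CPM (median 293) in B16-GFP, 75.3 to 124 (median 93.4) in B16-IFNA4 and 104 to 217 (median 140) in B16-IFNA9. It was the only member whose tumors of both interferon types lay wholly below B16-GFP, where 3.35% of all genes did so for B16-IFNA9. Rab38 had log2 fold changes of -1.76 ± 0.17 with IFNα4 (adjusted p = 3.68e-10) and -1.15 ± 0.17 with IFNα9 (adjusted p = 1.55e-06), and 0.61 ± 0.17 between the types (adjusted p = 0.00958).

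Rab27a encodes the GTPase that links the melanosome to its myosin motor through melanophilin, and also serves the release of cytotoxic granules in lymphocytes. It lies at chr9:73044854-73097629 and its level was 155 to 394 CPM (median 198) in B16-GFP, 68.9 to 130 (median 94.4) in B16-IFNA4 and 104 to 233 (median 153) in B16-IFNA9. B16-IFNA4 did not overlap with B16-GFP, while 5 of 10 B16-IFNA9 tumors reached into its range. Against B16-GFP the log2 fold change of Rab27a was -1.12 ± 0.16 with IFNα4 (adjusted p = 5.2e-07) and -0.48 ± 0.16 with IFNα9 (adjusted p = 0.0104), the latter falling to -0.34 (adjusted p = 0.0422) without B16-GFP replicate 7. Between the types it was 0.64 ± 0.16 (adjusted p = 0.00488).

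Mitf encodes the transcription factor described above, and lies at chr6:97807052-98021349. Its promoters drive several isoforms, of which one belongs to melanocytes, and the gene counts do not part them. Its level was 412 to 710 CPM (median 589) in B16-GFP, 170 to 424 (median 299.6) in B16-IFNA4 and 306 to 601 (median 373) in B16-IFNA9, with 2 tumors of each interferon type inside the B16-GFP range. It fell by 0.997 ± 0.139 on the log2 scale with IFNα4 (adjusted p = 3.92e-07) and by 0.588 ± 0.138 with IFNα9 (adjusted p = 0.000672). The difference between the types, 0.41 ± 0.14, had an adjusted p of 0.0376, and the call was lost in 7 of 37 alternatives, with adjusted p from 0.0515 to 0.106. These were the fits with no filter, without B16-IFNA4 replicate 1, 6, 8, 9 or 10, and without B16-IFNA9 replicate 10, the highest of its type, where the difference was 0.32.

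Mc1r encodes the melanocortin receptor, and lies at chr8:123407107-123410744. Its level was 42.8 to 76.4 CPM (median 62.9) in B16-GFP, 19.9 to 41.4 (median 27.1) in B16-IFNA4 and 26.0 to 64.6 (median 38.5) in B16-IFNA9. B16-IFNA4 did not overlap with B16-GFP, and 2 B16-IFNA9 tumors did. The log2 fold change was -1.11 ± 0.14 with IFNα4 (adjusted p = 1.15e-07) and -0.61 ± 0.14 with IFNα9 (adjusted p = 0.000589), and 0.49 ± 0.14 between the types (adjusted p = 0.0148).

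Gpnmb encodes a melanosome glycoprotein that macrophages also make, and lies at chr6:49036546-49070929. Its level was 2573 to 4893 CPM (median 3754) in B16-GFP, 1293 to 2550 (median 1759) in B16-IFNA4 and 1783 to 4168 (median 2382) in B16-IFNA9. B16-IFNA4 did not overlap with B16-GFP, and 2 B16-IFNA9 tumors did. Its log2 fold change was -1.002 ± 0.138 with IFNα4 (adjusted p = 3.24e-07), -0.55 ± 0.14 with IFNα9 (adjusted p = 0.00127) and 0.45 ± 0.14 between the types (adjusted p = 0.0193). Without B16-IFNA9 replicate 10 the last value was 0.34 (adjusted p = 0.0603).

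Of the 9 members, 7 had no overlap between B16-IFNA4 and B16-GFP, against 10.0% of all genes that lay wholly lower in B16-IFNA4, and Rab38 alone had none between B16-IFNA9 and B16-GFP. Without B16-GFP replicate 7 all 9 members were still called lower in both interferon types, when 31.3% and 26.6% of all genes were, and the log2 fold changes of Tyrp1 became -1.75 with IFNα4 and -0.95 with IFNα9. With IFNα4 the 4 members with TCATGTG in the window had log2 fold changes of -1.998 (Trpm1), -1.97 (Tyrp1), -1.24 (Tyr) and -1.11 (Mc1r), and the 4 without it -1.69 (Oca2), -1.12 (Rab27a), -1.002 (Gpnmb) and -0.997 (Mitf). With IFNα9 these were -1.09, -1.17, -0.97 and -0.61 with the letters, and -1.31, -0.48, -0.55 and -0.59 without them. Both sets overlapped in each comparison, and the difference was not tested.

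**Figure D2:**
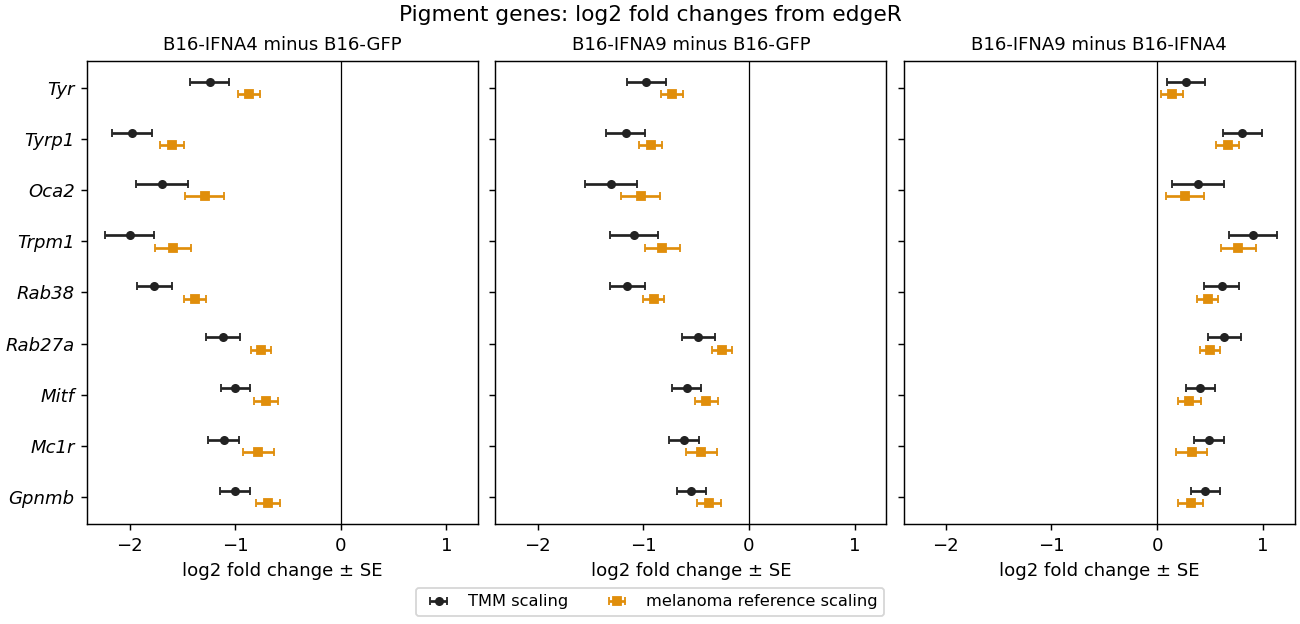
Log2 fold change ± SE of the 9 pigment genes in the 3 comparisons, fitted with TMM scaling (circles) and with scaling to a melanoma reference list (squares). All circles and squares lie below 0 in both comparisons with B16-GFP, and Tyrp1, Trpm1, Rab38 and Oca2 lie furthest from 0 with IFNα4.

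Per kilobase of annotated exon, Tyrp1 was the most abundant member in every type, at a mean of 3303 ± 1493 (SD, n = 10) CPM per kilobase in B16-GFP, 841 ± 141 in B16-IFNA4 and 1471 ± 483 in B16-IFNA9. Gpnmb (557 ± 110 in B16-GFP), Rab38 (208 ± 96.2), Tyr (107.9 ± 47.3), Mitf (94.3 ± 15.0), Rab27a (56.4 ± 19.5), Trpm1 (33.2 ± 18.1), Mc1r (16.3 ± 3.25) and Oca2 (14.1 ± 8.31) followed. Tyr and Mitf could not be ordered, since Tyr was above Mitf in 5 of 10 B16-GFP tumors, and Mc1r was above Oca2 in 8 of 10. The other neighbours in B16-GFP kept their order in 10 of 10 tumors. In B16-IFNA4, Trpm1 at 8.32 ± 2.54 stood next to Mc1r at 7.55 ± 1.66 and was above it in 5 of 10 tumors.

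The ratio of a pair of members within each tumor was compared next, to set the genes against each other. A ratio does not depend on the scaling of the library. Nor does it depend on the share of melanoma cells, when that share is all that changes and no other cells express either gene. Macrophages also make Gpnmb and lymphocytes also use Rab27a, so this condition need not hold for their ratios. The difference in mean log2 ratio between types was tested for 36 pairs in 3 comparisons by two-sided permutation tests, with Benjamini-Hochberg adjustment over the tests of all pairs and comparisons. Ratios differed for 21 of 36 pairs between B16-IFNA4 and B16-GFP, for 17 between B16-IFNA9 and B16-GFP, and for 9 between the interferon types, and without B16-GFP replicate 7 for 18, 15 and 9.

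Tyrp1, Trpm1, Rab38 and Oca2 are the 4 members with the largest fold changes with IFNα4, so that their ratios to the other 5 fall follows from how these sets were formed, and the count of pairs is a description. With IFNα4 they fell relative to Tyr, Mitf, Gpnmb, Rab27a and Mc1r in 19 of the 20 pairs between these sets, all but Oca2 with Mc1r. The largest difference was that of Trpm1 to Gpnmb, whose log2 ratio went from -3.00 ± 0.46 (SD) to -3.91 ± 0.39, a difference of -0.91 (permutation, adjusted p = 0.00042). The log2 ratio of Tyrp1 to Gpnmb went from 1.295 ± 0.326 to 0.40 ± 0.17 with no overlap between the tumors, a difference of -0.90 (permutation, adjusted p = 0.00027). The remaining 2 called ratios lay within the first set, Rab38 rising against Tyrp1 by 0.21 and Oca2 against Trpm1 by 0.28. The calls for Oca2 with Tyr, Mitf and Gpnmb were lost without B16-GFP replicate 7, where the adjusted p of the permutation tests was 0.0596, 0.0795 and 0.0704.

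Tyr and Tyrp1, which encode enzymes of one pathway, fell by different amounts. The log2 ratio of Tyr to Tyrp1 was -3.60 ± 0.16 in B16-GFP, -2.88 ± 0.10 in B16-IFNA4 and -3.40 ± 0.15 in B16-IFNA9 (SD, 10 tumors each). B16-IFNA4 lay apart from both other types with no overlap, with differences of 0.72 from B16-GFP and -0.52 for B16-IFNA9 from B16-IFNA4 (both permutation, adjusted p = 0.00027), and B16-IFNA9 differed from B16-GFP by 0.20 (permutation, adjusted p = 0.0254). Trpm1 rose against Tyr by 0.64 from B16-IFNA4 to B16-IFNA9 (permutation, adjusted p = 0.00216) and against Oca2 by 0.45 with no overlap (permutation, adjusted p = 0.00027).

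With IFNα9, Rab27a and Gpnmb each rose against 5 members. They had the smallest falls of the members with IFNα9, so these rises follow from how they were picked, and the counts are a description. Rab27a rose relative to Tyrp1 by 0.68, Oca2 by 0.75, Rab38 by 0.64 and Tyr by 0.48, each with no overlap between the tumors of B16-IFNA9 and B16-GFP (permutation, adjusted p = 0.00027), and relative to Trpm1 by 0.57 (permutation, adjusted p = 0.00136). Gpnmb rose against the same 5 members by 0.37 to 0.64, but its call with Trpm1 was lost without B16-GFP replicate 7 (permutation, adjusted p = 0.0537), as was that of Oca2 with Mc1r (permutation, adjusted p = 0.066). Mitf, Gpnmb, Rab27a and Mc1r had the smallest fold changes in both comparisons with B16-GFP, so small differences among them follow from how they were picked. Their ratios to one another were called in no comparison, with differences from -0.19 to 0.18 and adjusted p of 0.219 or more by the permutation tests. Lack of a call does not show that these ratios were equal. The log2 ratio of Gpnmb to Mc1r, for example, was 5.93 ± 0.17 in B16-GFP, 6.04 ± 0.33 in B16-IFNA4 and 6.01 ± 0.17 in B16-IFNA9.

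**Figure D3:**
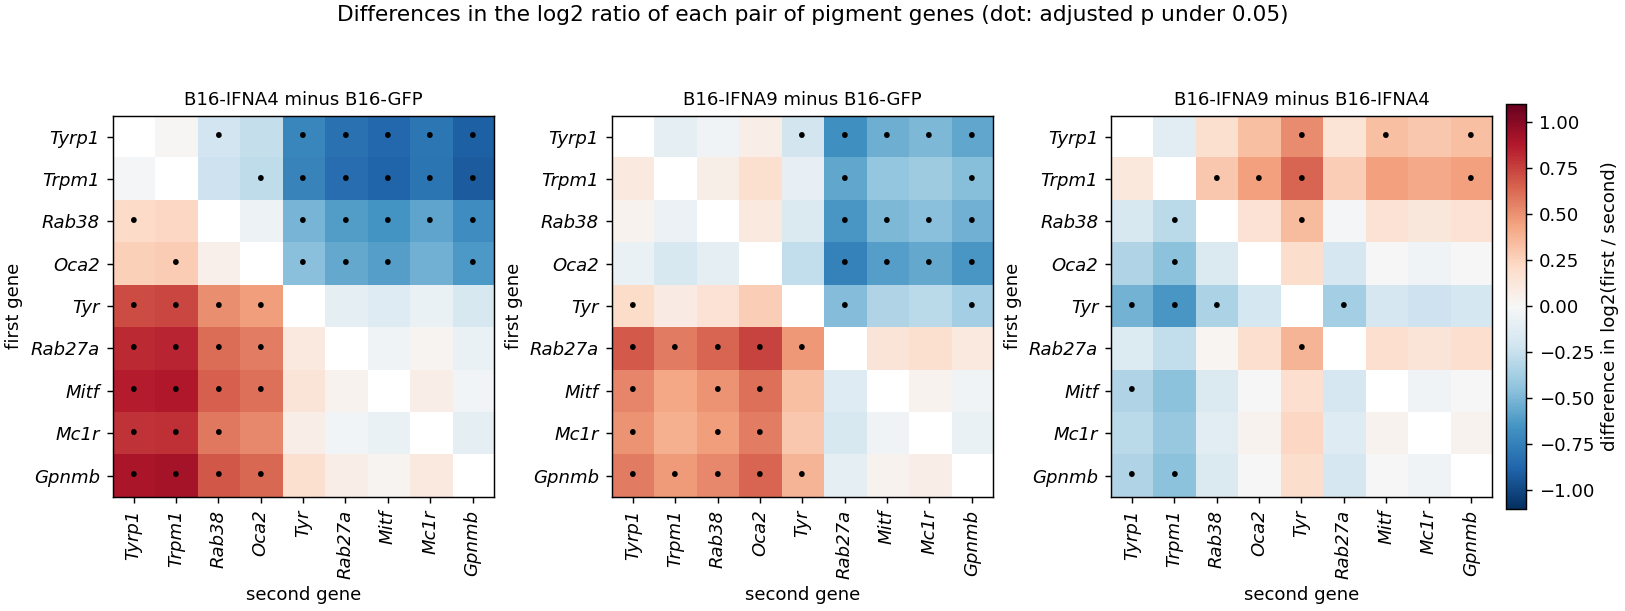
Difference between types in the mean log2 ratio of each pair of pigment genes (row gene over column gene), with a dot where the permutation test passed after adjustment over all pairs and comparisons. In B16-IFNA4 minus B16-GFP the 4 genes at the top are blue against the 5 at the bottom, down to -0.91, and the 4 at the bottom right are near 0 against each other.

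A second fit scaled each library by 7 genes of the melanocyte and neural crest lineage, among them Erbb3, S100b, Pax3, Cdh19, Gjc3 and Sox5, in place of TMM. All 9 members remained lower in B16-IFNA4, from a log2 fold change of -0.69 ± 0.11 for Gpnmb to -1.60 ± 0.11 for Tyrp1, against 16.5% of all genes, and in B16-IFNA9, from -0.26 ± 0.10 for Rab27a to -1.02 ± 0.18 for Oca2, against 14.9% of all genes. Between the interferon types Tyrp1, Trpm1, Rab38 and Rab27a, 4 of 9, were higher in B16-IFNA9, against 4.31% of all genes. This last count turned with the reference, with 0 higher and 8 lower under Pax3 alone, where 94.3% of all genes were lower, and 7 higher under Erbb3 alone, against 9.50% of all genes, and 7 without Pax3 and Sox5 (also chosen after their values were seen), against 8.98%. The fit to all 7 genes without B16-GFP replicate 7 still called 9 and 9 members lower, against 17.5% and 16.5% of all genes, and called 6 higher between the types, against 5.40% of all genes, with Mitf (adjusted p = 0.0347) and Gpnmb (adjusted p = 0.0438) added. With all 7 genes and all tumors the median of all genes was 0.31, 0.17 and -0.13 on the log2 scale in the 3 comparisons, and 43.1% of all genes were higher with IFNα4. Under TMM these 6 reference genes did not move together, from -1.62 ± 0.15 for Pax3 to 0.37 ± 0.10 for Erbb3 with IFNα4, and Erbb3, S100b and Cdh19 are also genes of Schwann cells. With Pax3 alone as the reference, an alternative chosen after its values were seen, 2 members were lower and 5 higher in B16-IFNA4, where 0.929% of all genes were lower and 93.7% higher with a median of 1.58, and 5 were lower in B16-IFNA9, against 5.05% of all genes. With Erbb3 alone all 9 were lower in both, against 51.3% of all genes with IFNα4 and 38.7% with IFNα9.

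Markers of other cells moved with the types. Xist, which only the cells of the female host transcribe since B16 came from a male mouse, was at 36.1 to 904.8 CPM (median 384) in B16-GFP, 834 to 1366 (median 1067) in B16-IFNA4 and 522 to 1159 (median 909) in B16-IFNA9, with log2 fold changes of 1.44 ± 0.27 (adjusted p = 2.67e-05) and 1.18 ± 0.26 (adjusted p = 0.0004) from B16-GFP. Without B16-GFP replicate 7 these were 1.32 ± 0.18 and 1.05 ± 0.18. Of 6 pan-leukocyte markers, led by Ptprc, 5 were higher in each interferon type, against 31.3% of all genes with IFNα4 and 26.9% with IFNα9, and Arhgdib, picked after its values were seen, was lower with IFNα4 at -0.46 ± 0.09. Their summed level was 521 to 930 CPM in B16-GFP, 1057 to 2069 in B16-IFNA4 and 850 to 1550 in B16-IFNA9. All 8 markers of cytotoxic lymphocytes were higher in both, with sums of 6.16 to 37.6, 94.2 to 222 and 69.9 to 181 CPM. The 8 macrophage markers tested had overlapping sums of 447 to 2005, 1055 to 1783 and 1008 to 1857 CPM, with 2 higher and 2 lower in B16-IFNA4, and 2 higher and 1 lower in B16-IFNA9. Of other host lists, 3 of 5 endothelial markers were lower in each interferon type, against 34.1% and 28.9% of all genes, and Kdr, picked after its values were seen, was higher with IFNα4 at 1.35 ± 0.16. In the remaining lists 3 of 4 keratinocyte markers were higher with IFNα4 and 1 with IFNα9, 2 of 5 muscle markers were lower with IFNα9, and 1 of 4 Schwann cell markers was lower in each. Between the interferon types 4 of 5 muscle, 3 of 5 endothelial and 3 of 8 cytotoxic lymphocyte markers were lower in B16-IFNA9, against 7.25% of all genes. Leukocyte and macrophage markers each had 1 higher and 1 lower, and without B16-GFP replicate 7 leukocyte markers had 1 higher and 3 lower. Xist and the keratinocyte and Schwann cell markers were not called between these types. The counts from B16-GFP changed without B16-GFP replicate 7 for 2 of the host lists, with 6 of 8 macrophage markers lower with IFNα4 and 1 higher and 1 lower with IFNα9, and 4 of 5 muscle markers lower with IFNα9. None of these lists was at 0, and their part in the pigment gene results was not tested.

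Within a type, members tended to be low where host transcripts were high. Of 54 relations of a member with Xist or with the macrophage marker level, 10 tumors each, 52 had a negative Pearson's r, and 14 passed a permutation test after adjustment over the 54 relations. By Spearman's rho 0 passed, and 11 had an unadjusted p under 0.05. Leaving out the 2 tumors farthest from the median of the marker left 41 of 54 negative. CPM values of a library share its total, so these relations also share that. The members of a type are set against the same marker values in the same tumors, so the relations are not independent. Members also tracked each other over the 30 tumors with the mean of each type taken off, from r = 0.11 for Mitf with Mc1r to 0.94 for Tyr with Tyrp1.

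In B16-GFP the relation with Xist rested on few tumors, and without the 2 farthest in Xist 3 of the 9 members stayed negative. With the macrophage level 9 of 9 stayed negative without the 2 farthest in it, and the 4 called relations, those of Oca2, Tyr, Trpm1 and Rab27a, then had r from -0.70 to -0.60. Tyrp1 with Xist in B16-GFP gave r = -0.88 (permutation p = 0.00838, adjusted 0.0367) and rho = -0.71 (permutation p = 0.0268, adjusted 0.184), but r = -0.16 without the 2 tumors farthest in Xist. In B16-IFNA9, Trpm1 with Xist gave r = -0.84 (permutation p = 0.00147, adjusted 0.0251), rho = -0.64 (permutation p = 0.055, adjusted 0.198) and r = -0.83 without 2 tumors. Rab27a with the macrophage level in B16-IFNA9 gave r = -0.92 (permutation p = 0.00022, adjusted 0.0119), rho = -0.78 (permutation p = 0.00999, adjusted 0.18) and r = -0.77 without 2 tumors. Gpnmb, which macrophages can make, gave r = -0.86 with their markers in the same type (permutation p = 0.002, adjusted 0.0251), rho = -0.66 (permutation p = 0.0426, adjusted 0.198) and r = -0.67 without 2 tumors. In B16-IFNA4 no relation passed by either measure, with r from -0.67 to 0.30 for Xist.

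**Figure D4:**
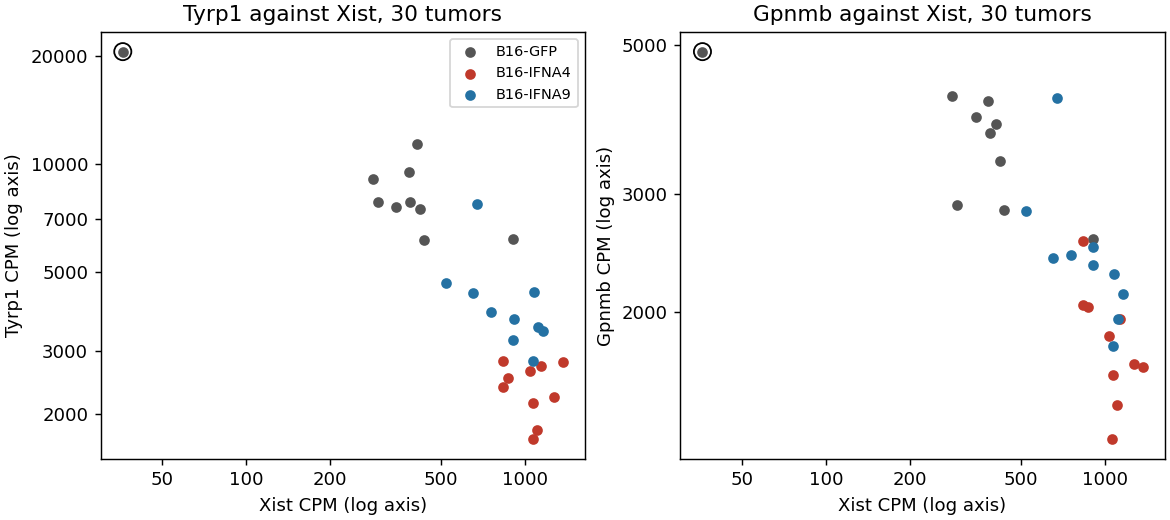
CPM of Tyrp1 and of Gpnmb against Xist CPM in 30 tumors, both axes on a log scale, colored by type, with a ring around B16-GFP replicate 7. The ringed tumor is at 36.1 CPM of Xist, and most B16-GFP tumors lie at lower Xist and higher pigment gene levels than those of the interferon types.

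Other pigmentation genes were counted from a list of 32, of which 21 were tested and the rest were not analysed here. With IFNα4, 16 were lower and 2 higher, and with IFNα9, 12 were lower and 3 higher, against 34.1% lower and 31.3% higher among all genes with IFNα4 and 28.9% and 26.9% with IFNα9, and their medians were -0.38 and -0.43. Myo5a, the myosin that Rab27a recruits, fell by 0.81 on the log2 scale in B16-IFNA4 and by 0.55 in B16-IFNA9. Mlph, which encodes melanophilin, fell by 1.09 and 0.57. Slc7a11, the cystine transporter that feeds pheomelanin, fell by 0.89 and 0.63.

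Slc45a2, a transporter that keeps melanosome pH, fell by 2.37 in B16-IFNA4 and 1.66 in B16-IFNA9. Slc24a5, a melanosome cation exchanger, and Gpr143, the ocular albinism receptor, were picked after their values were seen. Slc24a5 fell by 2.22 and 1.65, and Gpr143 by 1.95 and 0.86 on the log2 scale. Also picked so were the endolysosomal channel gene Tpcn2 and Bloc1s6, a subunit of the BLOC-1 sorting complex, which were higher in both types, by 0.82 ± 0.10 and 0.42 ± 0.07 in B16-IFNA4. Between the interferon types 4 were higher in B16-IFNA9, Slc45a2, Mlph, Gpr143 and Sytl2, against 10.5% of all genes, and 1 was lower, Tpcn2, against 7.25%. Leaving out B16-GFP replicate 7 made these counts 13 lower and 2 higher with IFNα4, 11 lower and 3 higher with IFNα9, and 7 higher and 1 lower between the types. Sytl2, a Rab27a effector gene, was the only one of the 21 lower with IFNα4 and higher with IFNα9, at -0.49 ± 0.17 and 0.73 ± 0.17, and was picked after its values were seen.

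**Figure D5:**
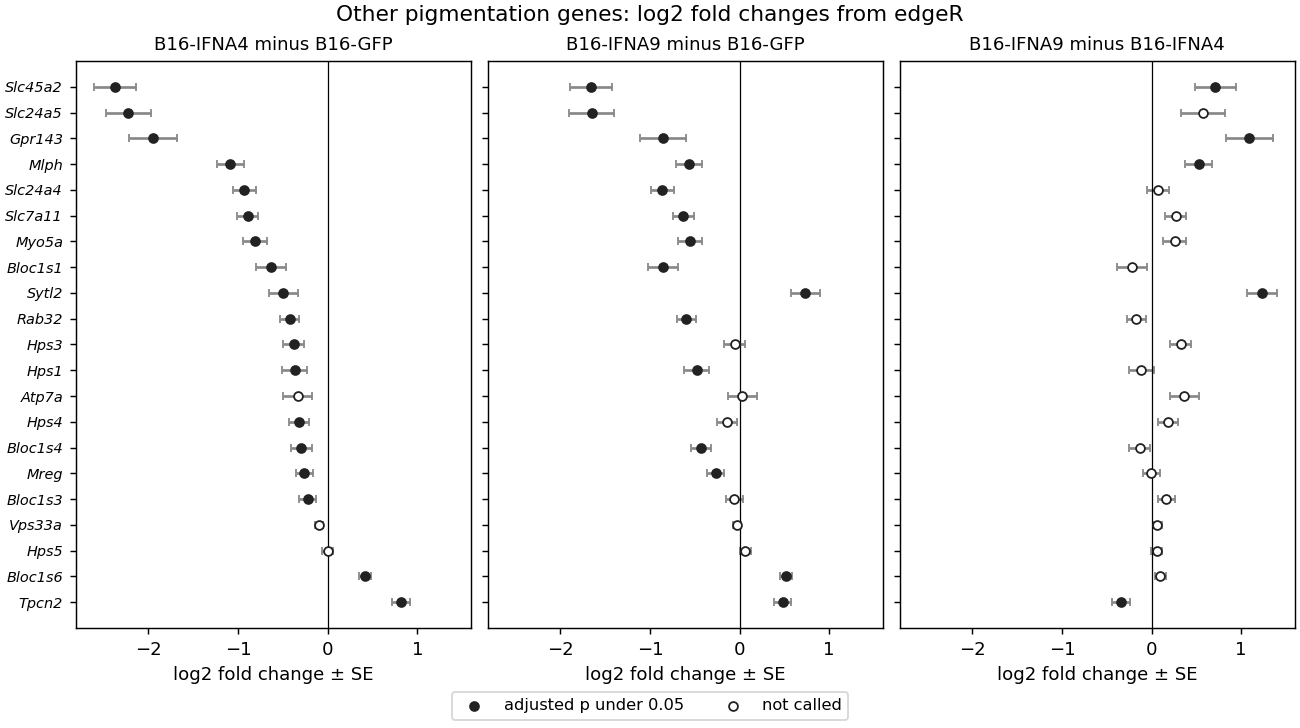
Log2 fold change ± SE of 21 other pigmentation genes in the 3 comparisons, filled where edgeR's adjusted p was under 0.05. Slc45a2 at -2.37, Slc24a5 at -2.22 and Gpr143 at -1.95 lie furthest to the left with IFNα4, and Tpcn2 and Bloc1s6 to the right of 0.

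Of 16 tested regulators, partners and targets of MITF, 8 were lower and 4 higher with IFNα4, against 34.1% and 31.3% of all genes, and 6 lower and 2 higher with IFNα9, against 28.9% and 26.9%. Between the types 4 were higher in B16-IFNA9, against 10.5%. They were, without B16-GFP replicate 7, 8 and 4, 6 and 1, and 5 higher and 1 lower between the types. Met, a receptor kinase gene and MITF target, fell by 1.37 and 0.60, and Ppargc1a, a mitochondrial coactivator gene and MITF target, fell by 1.49 and 0.62. Creb1 was at -0.14 ± 0.09 and 0.01 ± 0.09 and was not called. Ctsk, a protease gene that MITF drives in osteoclasts, was higher with IFNα4 at 0.62 ± 0.15, and not called with IFNα9 at 0.27 ± 0.15.

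Of 11 tested genes of the melanocortin and cyclic AMP pathway, 4 were lower and 1 higher with IFNα4, and 3 lower and 1 higher with IFNα9. The shares of all genes were 34.1% lower and 31.3% higher with IFNα4 and 28.9% and 26.9% with IFNα9, so the lower counts lie near the background and the higher counts under it. They were 3 and 1, and 3 and 0, without B16-GFP replicate 7. Gnas, the stimulatory G protein, was at -0.30 ± 0.10 and -0.20 ± 0.10, the second not called, and Prkar1a, a regulatory subunit of protein kinase A, at -0.52 ± 0.08 and -0.44 ± 0.08. Prkacb, a catalytic subunit, was at -0.25 ± 0.08 and -0.18 ± 0.08, the second not called. These were smaller than the changes of Mc1r itself, without a test of that difference. Of 8 tested genes known to be high in dedifferentiated melanoma, 7 were higher with IFNα4 and 6 with IFNα9, against 31.3% and 26.9% of all genes, and also 7 and 6 without B16-GFP replicate 7. Axl, a receptor kinase gene of that state, was higher by 1.28 ± 0.14 and 1.05 ± 0.14, Egfr by 0.85 ± 0.19 and 0.61 ± 0.19, Tead1 by 0.36 ± 0.09 and 0.32 ± 0.09, and Jun by 0.38 ± 0.11 with IFNα4, while with IFNα9 it was at 0.12 ± 0.11 and not called. Fibroblasts and other host cells also express these genes, and 2 of 5 fibroblast markers tested were higher with IFNα4 and 1 with IFNα9.

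For each member, the non-member gene whose log2 CPM tracked it most closely was found as the highest Pearson's r over 30 tumors after the mean of each type was taken off. It was Glrb for Tyr (0.96), Met for Tyrp1 (0.95), Gsta2 for Oca2 (0.92), Aph1c for Trpm1 (0.94) and for Rab27a (0.95), Slc45a2 for Rab38 (0.95), Mlph for Gpnmb (0.94), Myo7a for Mc1r (0.83) and Gjc3 for Mitf (0.76). Without B16-GFP replicate 7 the same pairs had r from 0.76 for Mitf with Gjc3 to 0.94 for Tyr with Glrb. The points share libraries, and this is a description without a test. Mitf and Mc1r had the loosest neighbours, and Mlph, the partner of Rab27a, was nearest to Gpnmb rather than to Rab27a.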

How the data were processed

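Whole-tumor RNA was sequenced in 30 tumors, 10 per type, as 50-base single-end reads of a stranded mRNA library. The deposited values are raw counts per gene, which the authors made by aligning reads with HISAT2 2.0.4 and counting them with summarizeOverlaps, after quality checks with FastQC 0.11.3. The genome is given as mm10 in the submitters' processing notes and otherwise in the study's methods. The overlap mode, the strand setting and the annotation are not given in the sources used here, so reads of an antisense or overlapping gene cannot be told apart from a member's own. Gene models were named from GENCODE M21 (GRCm38), in which 39495 of 39676 identifiers were found, and member coordinates are from it.

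Counts were scaled by TMM and tested in edgeR 4.0.16 (R 4.3.3) with the quasi-likelihood test over the 15926 genes with a mean count of at least 10, all 30 tumors in one fit, with SE = |log2 fold change| divided by the square root of F. Calls are at an adjusted p under 0.05. All 9 members passed the minimum. Log2 CPM for ratios used a prior count of 2, and pair ratios and correlations were tested with 100000 two-sided permutations. The number of permutations limits how small a p can be, and the smallest among the pair tests was 2e-05. The study's own differential test was DESeq2, run here (1.42.0) as an alternative. The replicate numbers did not pair the tumors. Depth was 14598517 to 19788383 counts, and intervals here cover the spread between tumors. The labels call the tumors of a type biological replicates without tying them to mice or experiments, so p-values measure the spread between tumors. All tumors of a type share a transduced and sorted line, so the interferon subtype and any other difference between the lines cannot be told apart. On simulated counts for the B16-IFNA4 comparison with 197 genes changed by 1 on the log2 scale, 92.9% were recovered with 8 false calls among 15864 genes. The simulation had a dispersion of 0.08 for every gene, no outlier tumor and no change in most genes. The data differ in this, so these rates need not hold for them. One gene of the reference list is not reported here. The members and the gene lists were chosen with earlier results of these data known. All members are named, as are, of other lists, up to 4 genes of highest mean CPM and 3 nearest genes per member, of which the first is printed. Alternatives were other scalings, filters and tests, fewer tumors, a replicate block, other priors and other reference genes.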

Additional observations from a re-analysis of the deposited data

Results flagged for a closer look

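In groups of 10 tumors, a value was looked at again when its gap to the nearest other tumor, divided by the whole range, exceeded Dixon's critical value. Of 30 groups searched, the 9 members and Xist in 3 types, 5 met this, where chance gives about 1 in 20 groups, or 1.5. In B16-GFP replicate 7, Tyrp1 at 14.32 log2 CPM and Rab38 at 9.54 were far above the other tumors of the type, and Xist at 5.18 was far below. These 3 values are of 1 library and are not independent. In B16-IFNA9 replicate 10, Tyrp1 at 12.91 and Mitf at 9.23 log2 CPM were far above the other 9 tumors. Without B16-IFNA9 replicate 10 the log2 fold change between the interferon types was 0.66 for Tyrp1 (adjusted p = 0.0084) in place of 0.81, and 0.32 for Mitf (adjusted p = 0.106) in place of 0.41. Without B16-GFP replicate 7 that of Tyrp1 with IFNα4 was -1.75 in place of -1.97, and that of Xist 1.32 in place of 1.44.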

How the results depend on the processing

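Between each interferon type and B16-GFP, the 9 of 9 members called lower stayed 9 under DESeq2, DESeq2 size factors, library totals, both other filters, the 20 tumors alone, the replicate block and each left-out tumor (9 to 9). Between the interferon types the count was 5 to 7 with a tumor left out, 5 without B16-IFNA9 replicate 10, and 6 with no filter. Other pigmentation genes called lower were 13 to 18 and 11 to 12 with a tumor left out. Those called higher between the interferon types were 3 to 7 in place of 4, and 7 both with the 20 tumors alone and without B16-GFP replicate 7. With library totals the median of all genes was 0.09, 0.10 and 0.02, against 0.01, -0.003 and -0.006 with TMM.

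Results relative to the melanoma reference depended on the genes in it and, between the types, on B16-GFP replicate 7, without which 6 members were called in place of 4, against 5.40% of all genes in place of 4.31%. Members called in the direction of the main count were 2 (IFNα4), 5 (IFNα9) and 0 (between the types, with 8 the other way) with Pax3 alone, and 7 between the types with Erbb3 alone and 7 without Pax3 and Sox5, in place of 4. With Pax3 alone the log2 fold change with IFNα4 turned to 0.39 for Tyr, 0.56 for Mitf, 0.59 for Gpnmb, 0.52 for Rab27a and 0.51 for Mc1r, that with IFNα9 to 0.0088 for Rab27a, and that between the types to -0.87 for Tyr, -0.35 for Tyrp1, -0.73 for Oca2, -0.23 for Trpm1, -0.70 for Mitf, -0.69 for Gpnmb, -0.51 for Rab27a, -0.52 for Rab38 and -0.68 for Mc1r. By construction these are changes relative to Pax3, which itself fell by 1.62 and 0.46 from B16-GFP. With this scaling 94.3% of all genes were lower between the types, with a median of -1.0998, so these values are not particular to the members. Scaling to Sox10 alone was not run, as Sox10 was not analysed here.

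Same-numbered tumors did not deviate together, with 30 correlations from -0.27 to 0.30 and 4 over 0.1, and 2 of the tumors were closest to their own number, so the numbers name tumors only. With the replicate block 9, 9 and 7 members were called in the 3 comparisons, and 19, 14 and 7 pair ratios in place of 21, 17 and 9. That of Tyr to Tyrp1 with IFNα9 was among those no longer called (0.20, permutation, adjusted p = 0.0553). Priors of 0.5 and 5 left 21, 17 and 9. Depth limits Oca2 most, with 168 to 568 counts in B16-IFNA4.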
